A study of Homo sapiens with 12 samples.

Results

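Translation initiation factors (gene symbols beginning EIF1 to EIF6) and elongation factors (symbols beginning EEF1 or EEF2) were followed in 2 established human retinoblastoma cell lines. The cells had been exposed to THZ1, an inhibitor of the kinase CDK7, and CDK7 activity was not measured here. The members are all rows of the gene table whose symbols match these beginnings, without the eIF2 kinase genes and EIF1AY, which gave 67 of 27505 features. Of these, 65 had enough counts to be tested. The read-through models EEF1AKMT4-ECE2 (at most 5 counts in a library) and EEF1E1-BLOC1S5 (listed at 0 in every library) did not. The members comprise 40 initiation factors, 6 elongation factors (EEF1A1, EEF1A2, EEF1B2, EEF1D, EEF1G and EEF2), 3 genes of eIF5A, 5 inhibitors of cap binding, 7 enzymes that modify elongation factors, and 6 genes that carry such a symbol but have another role or are read-through models.

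The groups were WERI-Rb-1 cells in 0.1% DMSO, WERI-Rb-1 cells in 50 nM THZ1, Y79 cells in 0.1% DMSO and Y79 cells in 50 nM THZ1. Exposure lasted 12 h, and each group had 3 biological samples, so n = 3 throughout. THZ1 is a covalent inhibitor of CDK7, a kinase of the transcription factor TFIIH that phosphorylates RNA polymerase II, and DMSO is its solvent. Each line stands for 1 tumour, both were labelled wild type, and no untreated sample without solvent was used.

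Translation begins when eIF4E binds the cap of an mRNA, eIF4G joins it to the helicase eIF4A, and eIF3 brings in the small ribosomal subunit with eIF2, GTP and the initiator tRNA. eIF1, eIF1A and eIF5 help choose the start codon, eIF5B joins the large subunit, and eIF2B reloads eIF2 with GTP. In elongation, eEF1A delivers each aminoacyl-tRNA, the eEF1B subunits recharge eEF1A, and eEF2 moves the ribosome along. Many mRNAs of elongation factors and ribosomal proteins begin with a C followed by a run of pyrimidines, the 5′ terminal oligopyrimidine tract or TOP, through which mTOR and LARP1 control their translation.

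The annotated start sites are shown first, because a count of members by these letters follows. Each line gives 30 bases, 10 before the annotated start and 20 from it, 5′ to 3′ on the gene's strand, from RefSeq on GRCh38.p14. Capitals mark a C exactly at the start with the pyrimidines (C or T) that follow it, where at least 4 do. The first 5 lines are members that rose in both lines and have such a run. The next 3 are members that rose and lack it exactly at the start, although EIF4G2 has a run within 10 bases of it. The last 3 are members that fell and lack it. Members that fell and have the run are not shown and are named below.
EEF1A1 (chr6:73521013-73521042, minus strand): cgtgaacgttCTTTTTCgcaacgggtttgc
EEF2 (chr19:3985444-3985473, minus strand): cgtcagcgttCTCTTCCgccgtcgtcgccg
EIF3F (chr11:7987327-7987356, plus strand): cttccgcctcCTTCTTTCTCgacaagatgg
EIF2S3 (chrX:24054946-24054975, plus strand): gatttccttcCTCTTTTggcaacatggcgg
EIF4A2 (chr3:186783567-186783596, plus strand): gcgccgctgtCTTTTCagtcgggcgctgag
EEF1G (chr11:62573872-62573901, minus strand): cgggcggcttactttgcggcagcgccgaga
EEF1B2 (chr2:206159599-206159628, plus strand): aagtggccccagcctcgaggccgggcgtct
EIF4G2 (chr11:10807977-10808006, minus strand): tgtcggaagcacttccctaacttgcgcctg
EIF4E (chr4:98929114-98929143, minus strand): tggagcggttgtgcgatcagatcgatctaa
EIF5B (chr2:99337379-99337408, plus strand): ctgagaactcacaccatatgtgtcctgttc
EIF2S1 (chr14:67360318-67360347, plus strand): gaggttccgcatgcgcggtggagtgagcga

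A start window was matched for 53 of the 67 members, 1 window per symbol. A C followed by at least 4 pyrimidines, read on the gene's strand and exactly at the annotated start, was present in 12 of 53 (22.6%). The same letters stood at the start of 4.04% of all 27305 windows in the table and of 5.24% of the 11464 tested genes with a window. Where the run could begin anywhere within 10 bases of the annotated start, it was found for 24 of 53 members (45.3%) and for 33.3% of all windows, so the excess of the members was much smaller on this looser search. Of the members with a window, 9 of the 20 that rose in WERI-Rb-1 had the run, against 2 of the 21 that fell. In Y79 the counts were 10 of 22 and 1 of 23. EIF2S3 and EIF2S3B, which have the same 20 bases from the start, are counted separately among the 12 and, in Y79, among the 10. The members with the run that fell were EIF2A in both lines and EIF3M in WERI-Rb-1. The Y79 call of EIF2A (-0.24) was lost in 3 of 6 fits that left out 1 library (-0.19 at the least). Outside the members and the ribosomal proteins, tested genes with the run had a median log2 fold change of -0.16 in WERI-Rb-1 and 0.02 in Y79, and those without it had -0.15 and -0.16. A match describes letters at an annotated start, and the start used in these cells was not measured.

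The libraries held from 29677575 to 37433574 counts. CDK7 itself had 424 to 529 counts per library in WERI-Rb-1 in DMSO and 79 to 94 in THZ1, and 776 to 807 and 120 to 146 in Y79. The 13 mRNAs of the mitochondrial genome took 3.74% to 4.46% of counts in DMSO and 8.44% to 11.2% in THZ1. In the usual TMM scaling, which centres most genes at no change, the median log2 fold change of all tested features was 0 in WERI-Rb-1 and 0.01 in Y79. Scaling by library size alone moved this median to -0.45 and -0.50, and scaling to the mitochondrial mRNAs moved it to -1.89 and -1.65. All changes below are therefore relative to the bulk of the mRNAs, and the total amount of mRNA per cell was not measured. In a bulk sample, fewer cells of a type and less RNA per cell cannot be told apart. The Y79 THZ1 replicate 2 library stood apart from the other two of its group: the chi-square per degree of freedom over genes was 72.9 to 74.4 in its pairs and 7.73 to 13.8 in the other 10 replicate pairs. All 6 photoreceptor precursor markers (CRX, OTX2, RCVRN, RXRG, ARR3 and SYP) were present in every group, with a summed level of 1884 to 1951 CPM (TMM-scaled counts per 1000000) and 1606 to 1686 in WERI-Rb-1 in DMSO and THZ1, and 1379 to 1408 and 913 to 1100 in Y79. The summed level of 4 stromal markers in WERI-Rb-1 was 23.3 to 26.0 CPM in DMSO and 51.5 to 53.6 CPM in THZ1, with 1 of the 4 reaching 1 CPM. DCN and LUM were at 0 in every DMSO library. The summed level of 3 pigment epithelium markers (RPE65, BEST1 and TYRP1) was 3.26 to 10.8 CPM and 5.72 to 38.5 CPM in WERI-Rb-1 in DMSO and THZ1, and 5.08 to 11.0 CPM and 13.7 to 45.1 CPM in Y79, where the groups did not overlap and TYRP1 was at 0 in every library. The part of these markers in the results was not tested.

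In THZ1 the members split into a set that rose and a set that fell. In WERI-Rb-1, 26 members rose, 26 fell and 13 did not pass the test (edgeR quasi-likelihood, Benjamini-Hochberg adjusted p under 0.05 over all 18844 features). In the same comparison 29.0% of all features were called higher and 31.2% lower, 60.2% in all. In Y79, 29 members rose, 28 fell and 8 did not pass, beside 31.3% of all features higher and 32.3% lower, 63.6% in all. The median log2 fold change of the members, 0.07 in WERI-Rb-1 and -0.09 in Y79, lay close to that of all features. With library size as the only scaling, 21 members rose and 35 fell in WERI-Rb-1 and 23 rose and 36 fell in Y79. With scaling to the mitochondrial mRNAs the counts were 0 and 63 in WERI-Rb-1 and 2 and 53 in Y79. At that scaling 2.76% of all calls in WERI-Rb-1 and 4.75% in Y79 were rises, against 48.2% and 49.2% in TMM scaling. With library size alone these shares were 26.6% and 25.7%.

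The lines changed alike in most members. In both lines 25 members rose and 23 fell, and 5 passed in neither (EIF1, EIF4E3, EIF4EBP1, EIF5A2 and EEF1AKMT3). Of all features, 60.2% were called in either direction in WERI-Rb-1 and 63.6% in Y79. The share of all features called alike in both lines was not counted, so the 25 and 23 cannot be set against it. EIF4ENIF1, EIF3B and EIF3M fell in WERI-Rb-1 alone at this threshold. EIF2S3B, EIF3E, EIF4A1 and EEF2K rose in Y79 alone, and EIF4EBP2, EIF2B1, EIF2B5 and EIF4G1 fell there alone. EIF4E1B, the oocyte form of eIF4E, was called in opposite directions at very low counts. It had 28, 57 and 64 counts in WERI-Rb-1 in DMSO and 70, 89 and 98 in THZ1. In Y79 it had 7, 5 and 5 counts in DMSO and 0 in each THZ1 library, so that against a floor of 3 counts per library it was at least 1.09-fold lower. Across the 65 members, the rank correlation of the changes in the 2 lines was 0.87, and across all 18844 features it was 0.76. The linear (Pearson) correlations lay closer together, at 0.75 for the members and 0.71 for all features. The members share libraries and scaling within each line, so this is a description.

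**Figure D1:**
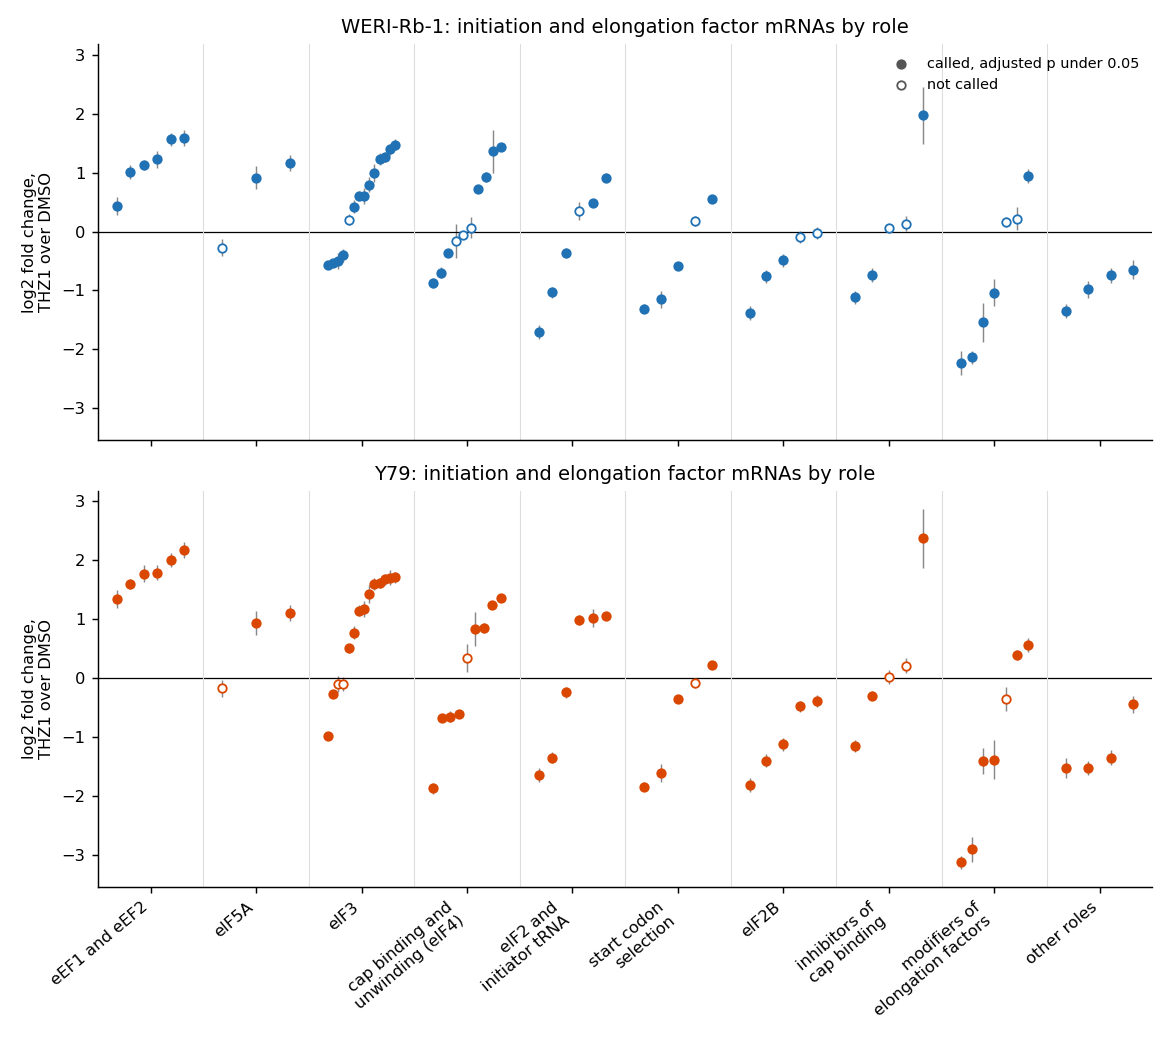
Log2 fold change of each tested member, THZ1 over DMSO, in WERI-Rb-1 (top) and Y79 (bottom), ordered by size within each role; bars are 1 SE, filled points were called and open points were not, and EIF4E1B is left out of the Y79 panel because it had no counts in THZ1. All 6 elongation factors lie above 0 in both lines in TMM scaling (in WERI-Rb-1 all 6 lie below 0 with scaling to mitochondrial mRNAs), while initiation factors lie on both sides.

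The 6 elongation factors all rose in both lines relative to the bulk of the mRNAs, beside 29.0% of all features in WERI-Rb-1 and 31.3% in Y79. The log2 fold changes of the 6 ran from 0.43 to 1.59 in WERI-Rb-1, with a median of 1.18. In Y79 they ran from 1.34 to 2.18, with a median of 1.78. The direction depends on the scaling: with mitochondrial scaling all 6 were called lower in WERI-Rb-1, and in Y79 2 were called higher and 1 lower. With library size alone 5 rose in WERI-Rb-1 and EEF1D did not pass, and all 6 rose in Y79. Measured from the median of all features, the elongation factors' median was 1.17 to 1.19 in WERI-Rb-1 and 1.70 to 1.78 in Y79 under TMM, RLE, library size and mitochondrial scaling, since a scaling moves all genes alike. Ribosomal protein mRNAs had medians of 1.54 and 1.90 on the TMM scale.

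EEF1A1 (chr6:73515750-73523797, minus strand, GRCh38), the main tRNA carrier, was the most abundant member per kilobase of exon in every group. It stood at 3697, 3865 and 3614 CPM in WERI-Rb-1 in DMSO and at 11262, 10631 and 11126 CPM in THZ1. In Y79 it stood at 7734, 7739 and 7572 CPM in DMSO and at 27652, 37504 and 27023 CPM in THZ1. The groups did not overlap in either line, and every THZ1 library was above every DMSO library of both lines. The log2 fold change was 1.56 ± 0.12 (SE) in WERI-Rb-1 (edgeR adjusted p = 5.5e-08) and 2.00 ± 0.12 in Y79 (edgeR adjusted p = 4.2e-09). The WERI-Rb-1 rise is 2.95-fold. EEF1A1 alone took 26.7% ± 0.21 (SD) of all members' counts in WERI-Rb-1 in DMSO and 40.5% ± 0.23 in THZ1. In Y79 this share was 34.2% ± 0.45 and 48.9% ± 1.62.

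EEF1A2 (chr20:63488012-63499322, minus strand), the form of eEF1A typical of neurons and muscle, rose as well. It measured 293, 328 and 294 CPM in WERI-Rb-1 in DMSO and 650, 579 and 617 CPM in THZ1. In Y79 the values were 314, 308 and 330 CPM, and 968, 1361 and 972 CPM. The log2 fold change was 1.01 ± 0.12 in WERI-Rb-1 and 1.79 ± 0.12 in Y79. The log2 ratio of EEF1A1 to EEF1A2 counts, which needs no scaling of libraries, was 3.61 ± 0.05 (SD) in WERI-Rb-1 in DMSO and 4.16 ± 0.04 in THZ1, and 4.60 ± 0.07 and 4.81 ± 0.03 in Y79. EEF1A1 therefore rose more than its paralog in both lines on this ratio, and the ratios did not overlap between DMSO and THZ1.

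EEF2 (chr19:3976056-3985469, minus strand), the translocase, rose from 1356, 1440 and 1365 CPM to 3210, 2855 and 3006 CPM in WERI-Rb-1, a log2 fold change of 1.12 ± 0.08. In Y79 it rose from 3151, 2954 and 3151 CPM to 9038, 10080 and 8915 CPM, a log2 fold change of 1.60 ± 0.08. The subunits of eEF1B, the exchange factor of eEF1A, came next. EEF1G, its gamma subunit, rose from 391 ± 16.3 to 1175 ± 65.0 CPM (mean ± SD) in WERI-Rb-1 and from 838 ± 28.8 to 3788 ± 947 CPM in Y79. These are log2 fold changes of 1.59 ± 0.13 and 2.18 ± 0.14, the largest among the elongation factors in both lines. EEF1G overlaps the gene model AP002990.1 on the same strand over 2714 exon bases, and with both counted as 1 feature the changes were 1.51 and 2.08. EEF1B2, the beta subunit with exchange activity, rose from 143 ± 7.41 to 336 ± 15.5 CPM and from 363 ± 15.2 to 1240 ± 340 CPM, log2 fold changes of 1.23 ± 0.14 and 1.77 ± 0.14. EEF1D, the delta subunit, changed least, from 169 ± 8.48 to 227 ± 9.69 CPM in WERI-Rb-1 (0.43 ± 0.15, edgeR adjusted p = 0.026) and from 203 ± 8.14 to 514 ± 160 CPM in Y79 (1.34 ± 0.15). In WERI-Rb-1 its groups did not overlap, but its call was lost in 5 of 6 fits that left out 1 library (log2 fold change 0.39 to 0.46, edgeR adjusted p from 0.044 to 0.084).

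**Figure D2:**
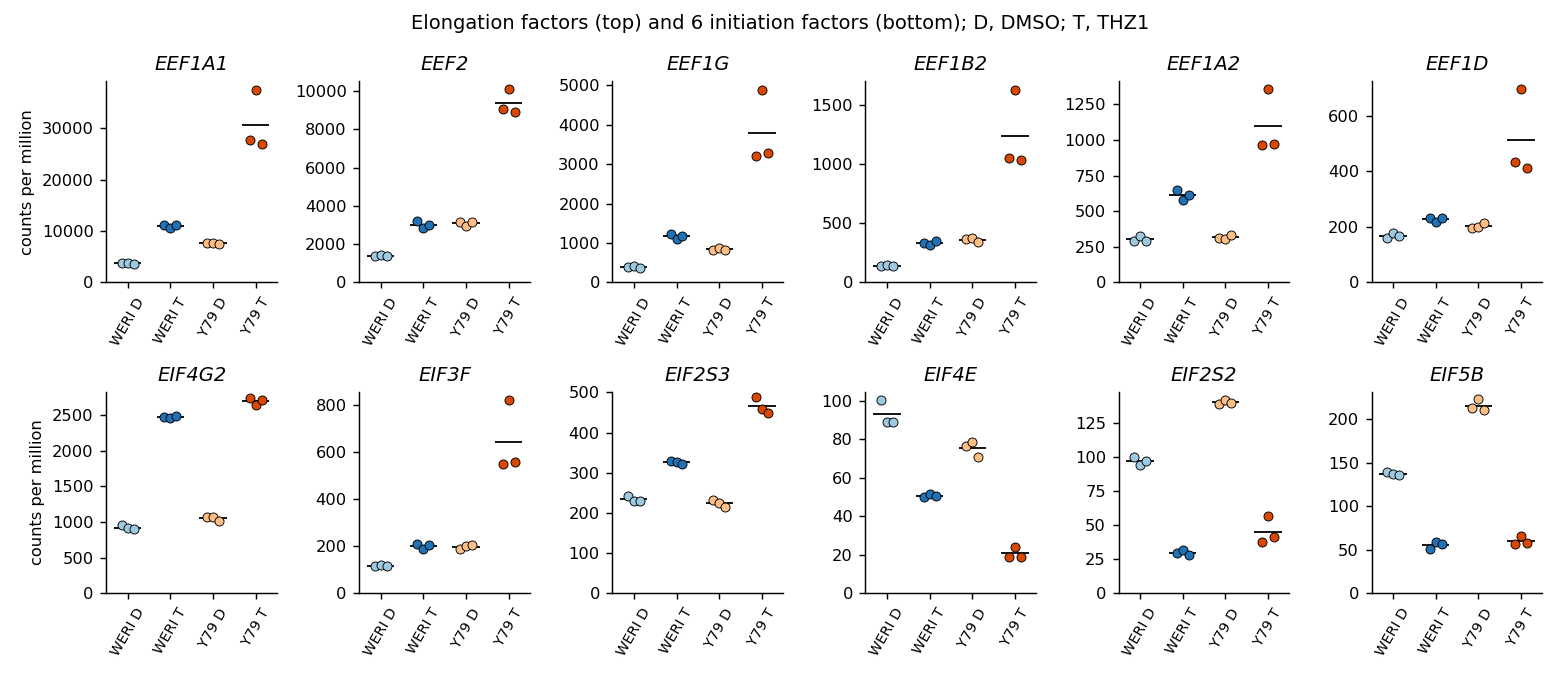
CPM (TMM scaled) of the 6 elongation factors (top) and 6 initiation factors (bottom) in each library; points are libraries, lines are group means, and each vertical axis starts at 0. The THZ1 libraries of the 6 elongation factors lie above the DMSO libraries of the same line, and so do those of EIF4G2, EIF3F and EIF2S3, while EIF4E, EIF2S2 and EIF5B lie below; with mitochondrial scaling the rises of WERI-Rb-1 turn to falls.

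The contrast of elongation with initiation can be read within each library, free of any scaling between libraries. The 6 elongation factors took 0.772% ± 0.023 (SD) of all counts in WERI-Rb-1 in DMSO and 1.51% ± 0.036 in THZ1, and 1.41% ± 0.008 and 3.53% ± 0.33 in Y79. The 40 initiation factors together took 0.841% ± 0.012 and 0.878% ± 0.012 in WERI-Rb-1, and 0.958% ± 0.013 and 1.09% ± 0.017 in Y79. The log2 ratio of summed elongation to summed initiation counts was -0.15, -0.09 and -0.13 in the WERI-Rb-1 DMSO libraries and 0.83, 0.73 and 0.79 in the THZ1 libraries. In Y79 it was 0.59, 0.54 and 0.54 in DMSO and 1.63, 1.82 and 1.63 in THZ1. The groups did not overlap in either line, and the mean ratio was higher in THZ1 by 0.91 in WERI-Rb-1 and by 1.14 in Y79. Without EEF1A1 the differences were 0.65 and 0.97. No p is given for these sums, since the members were chosen with results known.

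**Figure D3:**
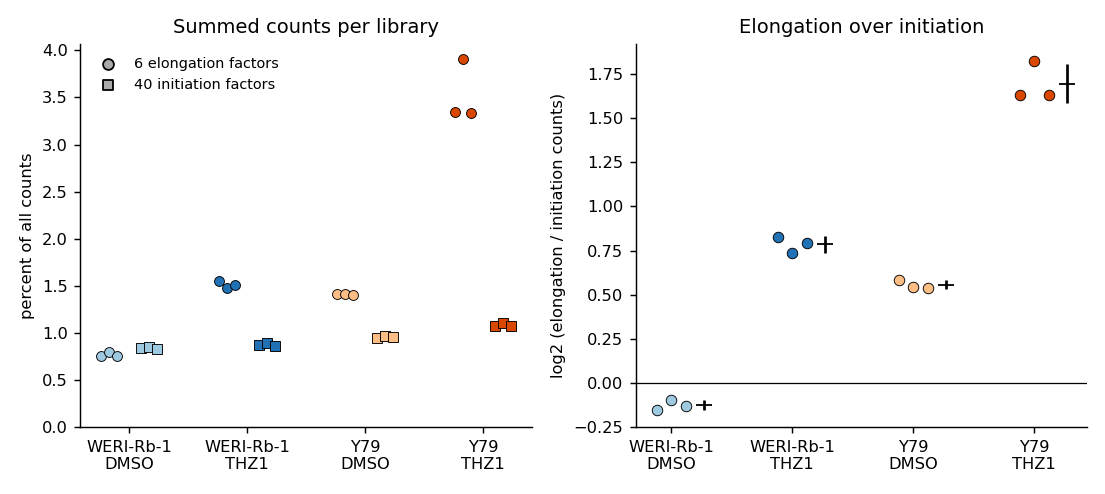
Left, share of all counts of a library taken by the 6 elongation factors (circles) and by the 40 initiation factors (squares), in percent; right, the log2 ratio of the 2 sums, with points for libraries and a bar for the mean ± SD of 3. The ratio rises from -0.12 to 0.78 in WERI-Rb-1 and from 0.56 to 1.69 in Y79, and it does not depend on the scaling between libraries.

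As a class the initiation factors had no common direction. In WERI-Rb-1, 16 of 40 rose, 16 fell and 8 did not pass, with a median log2 fold change of 0.02. In Y79, 18 rose, 18 fell and 4 did not pass, with a median of -0.09. Among all features, 29.0% rose and 31.2% fell in WERI-Rb-1 and 31.3% and 32.3% in Y79. In WERI-Rb-1, 6 of the 40 rose at least as much as the median elongation factor (EIF3C, EIF3CL, EIF3H, EIF3L, EIF4E1B and EIF4G2), and in Y79 none of the 40 did. At least as high as the lowest elongation factor were 15 in WERI-Rb-1 and 7 in Y79. With library size alone the counts were 12 up and 21 down in WERI-Rb-1 and 15 up and 22 down in Y79, beside 3120 and 8599 of the 18844 features in WERI-Rb-1 and 3111 and 8994 in Y79.

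eIF3, the scaffold that binds the small subunit, held most of the initiation factors that rose. Of its 14 genes, 9 rose and 4 fell in WERI-Rb-1, and 10 rose and 2 fell in Y79, with median log2 fold changes of 0.60 and 1.16. In the same TMM scaling, 29.0% of all features rose and 31.2% fell in WERI-Rb-1, and 31.3% and 32.3% in Y79. With mitochondrial scaling all 14 eIF3 genes were called lower in WERI-Rb-1 and 8 in Y79. At that scaling 15504 of all 18844 features were called lower in WERI-Rb-1 and 13968 in Y79. EIF3C had the largest rise of the 14 in both lines, 1.47 and 1.71. Reads of EIF3C and its near-identical copy EIF3CL (1.39 and 1.62) cannot be told apart with certainty, and in Y79 EIF3F (1.70) and EIF3L (1.68) rose more than EIF3CL. Counted as 1 feature they stood at 359 ± 15.7 CPM in WERI-Rb-1 in DMSO and at 970 ± 41.2 in THZ1, and at 509 ± 9.78 and 1613 ± 207 in Y79. The log2 fold changes of this sum were 1.44 and 1.66. EIF3F, one of its smaller subunits, measured 114, 120 and 114 CPM in WERI-Rb-1 in DMSO and 208, 189 and 206 in THZ1, and 187, 201 and 204, and 547, 821 and 557 in Y79. That is 0.80 ± 0.13 and 1.70 ± 0.13 on the log2 scale. EIF3E, another subunit with a TOP mRNA, did not pass in WERI-Rb-1 (191 ± 9.28 and 219 ± 2.89 CPM, 0.20 ± 0.10) and rose in Y79 from 313 ± 18.3 to 692 ± 109 CPM (1.14 ± 0.10).

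The eIF3 genes that fell were EIF3A, the largest subunit, EIF3J, a loosely bound one, EIF3B and EIF3M in WERI-Rb-1, and EIF3A and EIF3J in Y79. EIF3A changed by -0.53 and -0.27, EIF3J by -0.57 and -0.98, and EIF3B by -0.40 in WERI-Rb-1 and -0.10 in Y79. EIF3M fell from 68.3 ± 3.24 to 48.1 ± 3.32 CPM in WERI-Rb-1 (-0.51 ± 0.13) and had 148, 157 and 154 CPM in Y79 in DMSO and 121, 186 and 121 in THZ1. Those Y79 groups overlapped because of replicate 2, and without that library EIF3M fell there by 0.36 on the log2 scale (edgeR adjusted p = 5.3e-05). Over the 6 fits that left out 1 library this p ran from 5.3e-05 to 1. EIF3B in Y79 likewise changed by -0.32 without it, the lowest of its leave-one-out values.

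The cap-binding group moved apart. EIF4E (chr4:98871684-98930637, minus strand), the cap-binding protein, fell from 100, 89.1 and 88.7 CPM to 49.9, 51.7 and 50.4 CPM in WERI-Rb-1. In Y79 it fell from 76.3, 78.3 and 70.9 CPM to 18.8, 24.1 and 18.9 CPM. The groups did not overlap, and the log2 fold changes were -0.87 ± 0.09 (edgeR adjusted p = 1.6e-06) and -1.87 ± 0.10 (edgeR adjusted p = 1.2e-09). EIF4G1, the main scaffold, stood at 416, 431 and 413 CPM and at 433, 379 and 401 CPM in WERI-Rb-1, where the groups overlapped and no change passed (-0.05 ± 0.07). In Y79 it fell from 503 ± 14.5 to 314 ± 11.3 CPM (-0.68 ± 0.07). EIF4G3, its paralog, fell in both lines by similar amounts, -0.70 ± 0.09 and -0.66 ± 0.09.

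EIF4G2 (chr11:10797050-10809110, minus strand), a scaffold without an eIF4E-binding site that serves cap-independent initiation, went the other way. It measured 952, 911 and 896 CPM in WERI-Rb-1 in DMSO and 2476, 2457 and 2486 CPM in THZ1, and 1063, 1074 and 1015 CPM, and 2738, 2641 and 2707 CPM in Y79. The replicates lay close together, and the log2 fold changes were 1.43 ± 0.07 (edgeR adjusted p = 1.2e-09) and 1.36 ± 0.07 (edgeR adjusted p = 9.1e-10). With mitochondrial scaling they were -0.47 and -0.35. EIF4B and EIF4H, both cofactors of the helicase, differed: EIF4B, a TOP mRNA, rose by 0.73 and 1.24, and EIF4H changed by -0.36 and -0.61. In all, 4 of the 10 cap-binding genes rose and 3 fell in WERI-Rb-1, beside 29.0% and 31.2% of all features. In Y79 4 rose and 5 fell, beside 31.3% and 32.3% of all features. The rises in WERI-Rb-1 and the falls in Y79 include EIF4E1B, whose very low Y79 counts set a fall of at least 1.09-fold only.

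The helicase eIF4A is made from a pair of genes. EIF4A2 rose from 252 ± 5.65 to 478 ± 9.25 CPM in WERI-Rb-1 and from 220 ± 2.51 to 397 ± 54.0 CPM in Y79, log2 fold changes of 0.92 ± 0.08 and 0.85 ± 0.08 (-0.97 and -0.86 with mitochondrial scaling). EIF4A1 shares 1586 exon bases with the read-through model SENP3-EIF4A1, and the deposited counts divide the reads between the 2 models unevenly. The read-through model held 7.02% to 40.7% of the summed counts in WERI-Rb-1 in DMSO, 10.8% to 60.8% in THZ1, 3.42% to 44.1% in Y79 in DMSO and 1.98% to 6.48% in THZ1. The coefficient of variation of the EIF4A1 counts in WERI-Rb-1 in THZ1 was 43.3%, and that of the sum was 2.64%. Taken alone, EIF4A1 had a log2 fold change of -0.16 ± 0.28 in WERI-Rb-1, where it did not pass, and of 0.83 ± 0.28 in Y79 (edgeR adjusted p = 0.025). The Y79 call was lost without DMSO replicate 1 (0.65) or without THZ1 replicate 2 (0.65), and without THZ1 replicate 2 of WERI-Rb-1 the change there was -0.58. As 1 feature with the read-through model it rose in both lines on the TMM scale, but not per 1000000 counts of the library, as given next. The TMM-scaled sum went from 388 ± 10.6 to 464 ± 19.1 CPM in WERI-Rb-1 (0.26 ± 0.09) and from 712 ± 22.7 to 1030 ± 161 CPM in Y79 (0.53 ± 0.09). Divided by library totals alone, the sum was 477 to 509 in WERI-Rb-1 in DMSO and 417 to 437 in THZ1, and 777 to 827 and 741 to 847 in Y79.

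**Figure D4:**
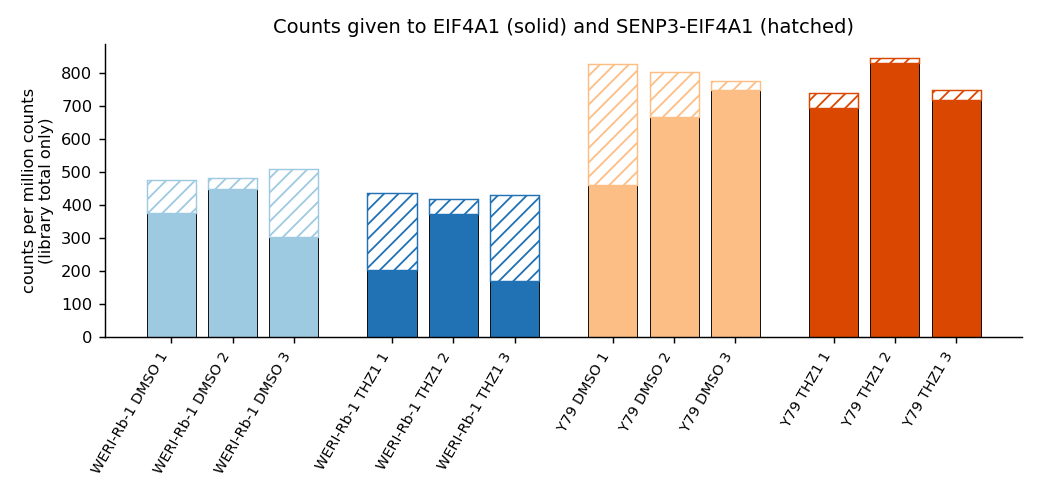
Counts assigned to EIF4A1 (solid) and to its read-through model SENP3-EIF4A1 (hatched) in each library, per 1000000 counts of that library with no further scaling. The hatched part varies from 1.98% to 60.8% of a bar while the whole bars of a group are of similar height; on this scale the WERI-Rb-1 sum is lower in THZ1 and the Y79 groups overlap, whereas on the TMM scale the sum rose in both lines.

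The subunits of eIF2, which carries the initiator tRNA, did not move together. EIF2S1, the alpha subunit that stress kinases phosphorylate, fell from 96.7, 89.9 and 89.5 CPM to 40.6, 49.0 and 45.6 CPM in WERI-Rb-1 and from 139, 146 and 135 CPM to 54.8, 61.6 and 48.0 CPM in Y79. The log2 fold changes were -1.03 ± 0.09 and -1.35 ± 0.09. EIF2S2, the beta subunit, fell from 100, 93.8 and 96.5 CPM to 29.1, 31.8 and 27.8 CPM and from 139, 142 and 140 CPM to 37.5, 56.3 and 40.9 CPM. Its log2 fold changes were -1.71 ± 0.12 and -1.64 ± 0.12, in WERI-Rb-1 the largest fall among the initiation factors. EIF2S3, the gamma subunit that binds GTP and tRNA, rose instead, from 234 ± 7.58 to 326 ± 3.79 CPM and from 223 ± 8.67 to 465 ± 20.2 CPM. The log2 fold changes were 0.48 ± 0.06 and 1.06 ± 0.06. With library size alone the first was 0.03 and did not pass, and with mitochondrial scaling both were negative (-1.42 and -0.65).

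The 5 genes of eIF2B, the exchange factor of eIF2, leaned to lower levels. In WERI-Rb-1 3 of 5 fell, beside 31.2% of all features, and the others did not pass. In Y79 all 5 fell, beside 32.3% of all features. The median log2 fold changes of the 5 were -0.49 and -1.12. EIF2B2 changed most, from 27.6 ± 1.60 to 10.6 ± 0.833 CPM and from 32.4 ± 1.47 to 9.24 ± 1.48 CPM, log2 fold changes of -1.38 ± 0.12 and -1.81 ± 0.12. EIF2B4 fell from 65.4 ± 2.27 to 38.6 ± 0.603 CPM and from 63.5 ± 3.64 to 24.1 ± 4.68 CPM (-0.76 ± 0.11 and -1.40 ± 0.11). The direction of the eIF2B calls was the same under TMM, RLE, library size and mitochondrial scaling. With mitochondrial scaling, however, 15504 of the 18844 features were called lower in WERI-Rb-1 and 13968 in Y79.

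Among the 5 factors of start codon selection and subunit joining, 3 fell in each line, beside 31.2% and 32.3% of all features. EIF5B, the GTPase of subunit joining, fell from 139, 137 and 136 CPM to 50.6, 59.2 and 56.1 CPM in WERI-Rb-1 and from 212, 223 and 210 CPM to 56.4, 66.1 and 57.4 CPM in Y79. The log2 fold changes were -1.31 ± 0.08 and -1.84 ± 0.08. EIF5, which triggers GTP hydrolysis by eIF2, fell by less, -0.58 ± 0.06 and -0.36 ± 0.06. The paralogs EIF1 and EIF1B differed. EIF1B fell from 30.4 ± 0.368 to 13.7 ± 1.63 CPM and from 31.2 ± 1.90 to 10.2 ± 2.55 CPM. EIF1 did not pass in either line (428 ± 19.1 and 486 ± 19.0 CPM, 199 ± 5.66 and 188 ± 21.6 CPM), although without Y79 THZ1 replicate 2 it changed there by -0.22 (edgeR adjusted p = 0.0017, the lowest of the 6 leave-one-out fits). The log2 ratio of EIF1 to EIF1B counts went from 3.81 ± 0.05 to 5.16 ± 0.19 in WERI-Rb-1 and from 2.68 ± 0.10 to 4.22 ± 0.34 in Y79. EIF1AX, the scanning factor eIF1A, rose by 0.55 ± 0.07 in WERI-Rb-1 and by 0.22 ± 0.07 in Y79. The Y79 call was lost without DMSO replicate 3 (0.19), and with library size alone the Y79 value was -0.35.

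eIF5A carries the modified amino acid hypusine and helps ribosomes past difficult codons. EIF5A rose from 213, 230 and 216 CPM to 513, 469 and 501 CPM in WERI-Rb-1 and from 328, 339 and 360 CPM to 644, 961 and 614 CPM in Y79. Its log2 fold changes were 1.17 ± 0.13 and 1.11 ± 0.13 (-0.73 and -0.60 with mitochondrial scaling), and the values were almost the same when it was counted with its near-identical copy EIF5AL1 (1.16 and 1.11). EIF5A2, a paralog of low level, did not pass, with 9.13 ± 0.443 and 7.55 ± 0.665 CPM in WERI-Rb-1 and 6.61 ± 0.965 and 5.86 ± 0.579 CPM in Y79. The log2 ratio of EIF5A to EIF5A2 counts rose from 4.59 ± 0.01 to 6.04 ± 0.19 and from 5.70 ± 0.29 to 6.95 ± 0.32. Of the enzymes of hypusine synthesis, DHPS rose by 0.79 and 1.06 and DOHH fell by 1.65 and 0.81 on the log2 scale.

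The 5 genes that restrain cap binding were divided too, with 1 rising and 2 falling in each line. Of all features, 29.0% rose and 31.2% fell in WERI-Rb-1, and 31.3% and 32.3% in Y79. EIF4EBP1, the mTOR-controlled eIF4E-binding protein 4E-BP1, did not pass in either line. It had 61.3, 63.3 and 59.2 CPM and 70.5, 60.4 and 70.9 CPM in WERI-Rb-1, and 69.7, 69.1 and 77.2 CPM and 72.6, 107 and 71.1 CPM in Y79, and the groups overlapped in both. EIF4EBP2 had 236 ± 8.17 and 245 ± 4.74 CPM in WERI-Rb-1 (0.05 ± 0.08) and fell in Y79 from 284 ± 11.6 to 231 ± 24.9 CPM (-0.30 ± 0.08). EIF4E2, a cap-binding protein that represses translation, changed by -1.12 and -1.16, and EIF4ENIF1, which carries eIF4E to the nucleus and to processing bodies, by -0.74 in WERI-Rb-1 and 0.02 in Y79. EIF4EBP3 was called higher in both lines, but at no more than 1.16 CPM in a library. The read-through model ANKHD1-EIF4EBP3 held 95.4% to 99.9% of the counts of that pair.

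Genes for enzymes that modify elongation factors held the largest falls of all members, leaving aside EIF4E1B, which had no counts in Y79 in THZ1. EEF1AKNMT (chr1:171781664-171814023, plus strand; METTL13 in GENCODE v29), which methylates eEF1A, fell from 50.1, 50.3 and 51.5 CPM to 10.8, 11.3 and 12.4 CPM in WERI-Rb-1. In Y79 it fell from 87.5, 84.4 and 93.3 CPM to 11.9, 10.0 and 8.35 CPM. The log2 fold changes were -2.14 ± 0.11 and -3.13 ± 0.11. EEF2KMT, which methylates eEF2, fell from 10.5 ± 0.645 to 2.22 ± 0.645 CPM and from 18.3 ± 0.109 to 2.46 ± 0.645 CPM, log2 fold changes of -2.23 ± 0.21 and -2.90 ± 0.21. It shares 915 exon bases with ALG1 on the opposite strand, and the library kit does not mark strand, so reads of the 2 genes cannot be told apart there. EEF2K, the kinase that inhibits eEF2, had 0.17 ± 0.09 in WERI-Rb-1, where it did not pass, and rose by 0.39 ± 0.09 in Y79. In all, 1 of the 7 modifiers rose and 4 fell in WERI-Rb-1, beside 29.0% and 31.2% of all features. In Y79 2 rose and 4 fell, beside 31.3% and 32.3% of all features.

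The 4 tested genes of other roles fell in both lines, beside 31.2% of all features in WERI-Rb-1 and 32.3% in Y79. However, the Y79 call of EIF6 was lost in 2 of 6 fits without 1 library (-0.34 at the least). EIF4A3, a helicase of the exon junction complex, fell from 174 ± 2.53 to 111 ± 4.90 CPM and from 174 ± 15.5 to 60.3 ± 19.5 CPM (-0.65 ± 0.16 and -1.53 ± 0.17). EIF6, which keeps the large subunit from joining early, changed by -0.98 and -0.44, EIF1AD by -1.35 and -1.52, and EEF1E1, a part of the aminoacyl-tRNA synthetase complex, by -0.75 and -1.36.

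The difference between the lines was tested directly, as the change in Y79 minus the change in WERI-Rb-1. Of the 65 members, 11 changed more upward in Y79 and 13 more downward, beside 7.81% and 11.0% of all features (18.8% in all). Without the Y79 THZ1 replicate 2 library these counts were 19 and 23, and 29.0% of all features were called. The elongation factors were higher in this contrast in 4 of 6, with a median of 0.57, or 0.39 without that library, when all 6 passed. EEF1D differed by 0.91 ± 0.22, EEF1A2 by 0.78 ± 0.16, EEF1G by 0.59 ± 0.19 and EEF2 by 0.47 ± 0.12. The EEF1G difference was lost in 9 of 12 fits that left out 1 library (0.36 to 0.71) and when it was summed with AP002990.1 (0.57). EEF1A1 differed by 0.44 ± 0.16 and EEF1B2 by 0.55 ± 0.20, which did not pass, and without Y79 THZ1 replicate 2 they differed by 0.27 and 0.30 and passed. Both passed without Y79 THZ1 replicate 3 too, and EEF1B2 also without Y79 THZ1 replicate 1. Of the 40 initiation factors, 6 differed upward and 9 downward.

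EIF4E fell more in Y79 than in WERI-Rb-1, by 0.998 on the log2 scale (edgeR adjusted p = 0.00024, SE 0.13), and by 1.12 without the library that stands apart. EIF4G1 (-0.63 ± 0.10), EIF5B (-0.53 ± 0.11) and EIF2B4 (-0.64 ± 0.15) also fell more in Y79. EIF2B2 and EIF2S1 differed by -0.43 and -0.32, which did not pass, and passed at -0.51 and -0.41 without Y79 THZ1 replicate 2. EIF3E (0.95 ± 0.14), EIF3F (0.91 ± 0.18) and EIF2S3 (0.58 ± 0.09) rose more in Y79. Among the other members named, EEF1AKNMT differed by -0.99 ± 0.15 and EIF4A3 by -0.88 ± 0.23. The EIF4A3 difference did not pass without Y79 THZ1 replicate 1 (-0.83). EIF1AX (-0.33) and EIF4EBP2 (-0.35) passed in full, but 9 and 8 of the 12 fits without 1 library lost the call.

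In DMSO, before any drug, the members were already higher in Y79 than in WERI-Rb-1. Of 65, 41 were higher and 7 lower, beside 29.9% of all features higher and 31.0% lower (60.8% in all). The median log2 difference was 0.46 for the members and close to 0 for all features. At library-size scaling the counts were 34 and 11, beside 4342 higher and 6821 lower of all 18844 features. At mitochondrial scaling they were 27 and 12, beside 3324 and 7497. All 14 eIF3 genes were higher in Y79, by 0.37 to 1.16. Of the elongation factors, EEF1B2 was higher by 1.34 ± 0.14, EEF2 by 1.15 ± 0.08, EEF1G by 1.10 ± 0.13 and EEF1A1 by 1.04 ± 0.12, while EEF1A2 and EEF1D did not pass. The members as a whole took 1.76% ± 0.033 of counts in WERI-Rb-1 and 2.53% ± 0.011 in Y79 in DMSO, and 2.51% ± 0.032 and 4.74% ± 0.35 in THZ1.

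The members lower in Y79 at baseline were led by EIF4E3, an atypical form of eIF4E. It had 16.6, 13.6 and 15.3 CPM in WERI-Rb-1 and 1.05, 0.978 and 1.11 CPM in Y79, a log2 difference of -3.86 ± 0.22. The DMSO libraries of EIF4E1B, at very low level, held 28, 57 and 64 counts in WERI-Rb-1 and 7, 5 and 5 in Y79. EIF1 stood at 428 ± 19.1 and 199 ± 5.66 CPM (-1.10 ± 0.08), EIF1AX at 195 ± 5.38 and 134 ± 3.79 CPM (-0.54 ± 0.07) and EIF5 at 343 ± 5.94 and 260 ± 6.62 CPM (-0.40 ± 0.06). EIF4E (-0.30 ± 0.09) and EIF5A2 (-0.47 ± 0.15) were also lower, and each call was lost in 2 of 6 fits that left out 1 library (EIF4E at -0.24 without WERI-Rb-1 DMSO replicate 1 and -0.26 without Y79 DMSO replicate 3, EIF5A2 at -0.43 without WERI-Rb-1 DMSO replicate 2 and -0.35 without Y79 DMSO replicate 3). EIF4G2 was higher in Y79 by 0.19 ± 0.07, a call that 4 of the 6 such fits lost (lowest value 0.17). Each line is 1 culture lineage, so that the line and any single feature of it cannot be told apart.

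Some members share exon bases with a gene on the opposite strand, where reads cannot be assigned with certainty. They include EIF5B with REV1 (852 bases), EIF2S1 with ATP6V1D (269), EIF3M with CCDC73 (742), EEF1D with TIGD5 (261), EIF5A with GPS2 (241), EIF4G2 with CTR9 (134) and EEF1B2 with NDUFS1 (19). EIF4E3 shares 738 exon bases with AC097634.4 on its own strand and 299 with GPR27 on the opposite one. EEF1A1 has many near-identical processed copies in the genome, and how the counting divided reads among them is not stated in the labels.

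Per kilobase of exon, the order of levels was led by the same 3 genes in every group. In WERI-Rb-1 in DMSO, EEF1A1 had 626 CPM per kilobase, EEF2 344 and EEF1G 144, followed by EIF1 (118), EIF4G2 (106), EIF4H (98.4), EIF5A (78.1) and EEF1B2 (74.9). In Y79 in THZ1 the first 4 were all elongation factors, with 5166 CPM per kilobase for EEF1A1, 2320 for EEF2, 1395 for EEF1G and 648 for EEF1B2, and EIF4G2 followed at 311. Across the 65 members, the rank correlation of the change with the DMSO level per kilobase was 0.34 in WERI-Rb-1 and 0.45 in Y79, beside -0.05 and -0.14 across all 14865 Ensembl genes tested. With the length of the gene on the chromosome it was -0.15 and -0.09 across the members, and -0.15 and -0.10 across all. These are descriptions over genes of the same libraries.

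Genes around the members were taken from lists drawn up with earlier results of these data known. The 9 members classed as TOP mRNAs (EEF1A1, EEF1B2, EEF1D, EEF1G, EEF2, EIF3E, EIF3F, EIF3H and EIF4B) rose in 8 cases in WERI-Rb-1 and in all 9 in Y79, with medians of 1.12 and 1.60. This classing comes from textbook knowledge, not from the letters above. It was made with earlier results known, so the rises of the 9 are a description and not a test. EEF1B2 and EEF1G had no such run at their annotated starts or within 10 bases of them, and EEF1D, EIF3E and EIF3H had no window. EIF2A and EIF3M, which have the run and fell in WERI-Rb-1, are not among the 9. The other 56 tested members included 18 that rose and 26 that fell in WERI-Rb-1, and 20 and 28 in Y79. Over all features, 29.0% rose and 31.2% fell in WERI-Rb-1, and 31.3% and 32.3% in Y79. The 5 other TOP mRNAs listed (TPT1, RACK1, PABPC1, NAP1L1 and HNRNPA1) rose in both lines. PABPC1, the poly(A)-binding protein that contacts eIF4G, rose by 1.46 ± 0.08 and 1.70 ± 0.08. Of its group of 6, 4 rose and 2 fell in each line, and PAIP1, which aids its contact with eIF3, fell by 0.97 and 1.87 on the log2 scale. These directions hold on the TMM scale, and the scaling shifts given above apply to them.

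Of the factors of termination, recycling and rescue, 7 of 8 fell in each line on the TMM scale, beside 31.2% and 32.3% of all features. ABCE1, which splits the subunits for reuse, fell by 1.30 and 2.27 on the log2 scale, and ETF1, the release factor eRF1, by 1.24 and 1.58. Of the 6 eIF2 kinases and phosphatase subunits, 2 rose and 3 fell in WERI-Rb-1, and 1 rose and 4 fell in Y79. EIF2AK3, the kinase PERK, changed by -1.57 and -1.90, and EIF2AK2, the kinase PKR, by -1.37 and -0.92. In the mTOR and MNK list, 3 of 12 rose and 6 fell in WERI-Rb-1, and 1 rose and 8 fell in Y79. Over all features 29.0% rose and 31.2% fell in WERI-Rb-1, and 31.3% and 32.3% in Y79. RPTOR fell by 1.19 and 1.03 and RPS6KB1 by 0.80 and 1.26 on the log2 scale. Of 4 helicases of initiation outside the eIF names, 2 rose and 2 fell in WERI-Rb-1, and 1 rose and 3 fell in Y79. DHX29, which helps scanning through structure, changed by -1.20 and -1.89, and DHX9 by 0.92 and 0.51. With library size alone 3120 features rose and 8599 fell in WERI-Rb-1 and 3111 and 8994 in Y79, and with mitochondrial scaling 440 and 15504, and 697 and 13968, so that the directions in these lists are relative to TMM.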

How the data were processed

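Total RNA of 12 libraries, 3 per group, had been made into cDNA libraries with a NEBNext Ultra RNA kit that does not mark strand, per the labels' protocols. The deposited table gives raw counts per feature, 19974 Ensembl genes and 7531 unannotated loci. Per the submitters' processing notes, the authors worked with Cufflinks and GRCh38. Neither the aligner nor the counting tool is given in the sources used here. Totals per library ran from 29677575 to 37433574 counts.

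Counts of all 12 libraries were fitted together with edgeR 4.0.16 (R 4.3.3): TMM scaling, filterByExpr, and the robust quasi-likelihood test, with 4 group means, which left 8 residual degrees of freedom. Contrasts were THZ1 against DMSO in each line, the difference of these changes, and Y79 against WERI-Rb-1 in DMSO. P-values were adjusted by Benjamini-Hochberg over all 18844 features, with a threshold of 0.05, and SE is the log2 fold change divided by the root of F. The fit was tested on simulated data. Levels per kilobase use the exon union of GENCODE v29. Start windows came from RefSeq and were matched by symbol.

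The members and lists were chosen with earlier results of these data known. Genes named with full values are 19 set members in every comparison, paralog pairs, CDK7, and up to 3 genes per list. The 4 largest rises and falls of each comparison were added, among called members of sufficient level. Their CPM values had to be without overlap between the groups compared, except for the difference between lines. Shared exons were not a criterion. Other members were named after their values were seen. The labels call the 3 samples of a group biological samples, without naming separate cultures, so p-values measure the spread between these samples, which may be technical. A floor of 3 counts covers counting error only. Replicate numbers did not pair the samples. Their correlations over 9 pairs of same-numbered samples ran from -0.04 to 0.01. Alternatives were RLE, library-size and mitochondrial scaling, no filter, Ensembl genes only, DESeq2 1.42.0, a replicate block, only the groups compared, each library left out, arms by symbol, and overlapping gene models summed.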

Additional observations from a re-analysis of the deposited data

Results flagged for a closer look

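For 24 of the 65 tested members, the change in THZ1 differed between the lines by a test of the difference itself (edgeR quasi-likelihood, Benjamini-Hochberg adjusted p under 0.05), as Y79 minus WERI-Rb-1 on the log2 scale. By the same test 18.8% of all features were called, and 29.0% without the Y79 THZ1 replicate 2 library. Of the 24 members, 15 were named with full values. Among these 15, the members with a more positive change in Y79 were EIF3E (0.95), EEF1D (0.91), EIF3F (0.91), EEF1A2 (0.78), EEF1G (0.59), EIF2S3 (0.58) and EEF2 (0.47). Those with a more negative change in Y79 were EIF4E (-0.998), EEF1AKNMT (-0.99), EIF4A3 (-0.88), EIF2B4 (-0.64), EIF4G1 (-0.63), EIF5B (-0.53), EIF4EBP2 (-0.35) and EIF1AX (-0.33). The other 9 were EIF4ENIF1 (0.76), EIF2S3B (0.67), EIF4B (0.51), EIF3L (0.41), EIF2B3 (-0.63), EEF1E1 (-0.61), EIF2B5 (-0.45), EIF3J (-0.41) and EIF4E1B, whose value rests on libraries with 0 counts and is not given. Whether reads counted for EIF2S3B come from EIF2S3 was not tested. No group had enough samples for a test of single outlying libraries. The Y79 THZ1 replicate 2 library bears on all 15, and without it the differences were 0.81 for EIF3E, 0.63 for EEF1D, 0.69 for EIF3F, 0.60 for EEF1A2, 0.36 for EEF1G, 0.59 for EIF2S3 and 0.42 for EEF2. The negative ones were then -1.12 for EIF4E, -0.98 for EEF1AKNMT, -1.15 for EIF4A3, -0.80 for EIF2B4, -0.65 for EIF4G1, -0.61 for EIF5B, -0.27 for EIF4EBP2 and -0.38 for EIF1AX, and all 15 passed. Other fits lost some of these calls. With the replicate number as a block, EEF1G (edgeR adjusted p = 0.053), EEF2 (0.058), EIF1AX (0.065) and EIF4EBP2 (0.097) did not pass. Of the 12 fits that each left out 1 library, 9 lost EEF1G, 9 lost EIF1AX, 8 lost EIF4EBP2 and 1 lost EIF4A3.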

How the results depend on the processing

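The cause of the shifts between scalings was not tested. With mitochondrial scaling, the members called higher and lower were 0 and 63 in WERI-Rb-1 and 2 and 53 in Y79. Of all 18844 features, 440 and 15504 were called in WERI-Rb-1 and 697 and 13968 in Y79. For the difference between lines the members were 19 and 4, beside 1991 and 766 of all features. For Y79 against WERI-Rb-1 in DMSO they were 27 and 12, beside 3324 and 7497. Library size alone gave 11 members lower there, beside 6821 of all features. The median log2 fold change of the elongation factors in WERI-Rb-1 was 1.26 with RLE, Ensembl genes only and DESeq2, 0.73 with library size alone, -0.72 with mitochondrial scaling and 0.32 with arms by symbol alone. In Y79 it was 1.20 with library size, 0.072 with mitochondrial scaling and 0.48 by symbol, and for the difference 0.19 by symbol. The median of the initiation factors in WERI-Rb-1 was 0.10 with RLE, Ensembl genes only and DESeq2, -0.43 with library size, -1.88 with mitochondrial scaling, -0.0010 with no filter and -0.027 by symbol. In Y79 it was 0.013 with RLE and DESeq2, 0.018 with Ensembl genes only, -0.67 with library size and -1.80 with mitochondrial scaling, and for the difference -0.055 with library size. Without EEF1A1 the difference of the elongation to initiation ratio was 0.65 in WERI-Rb-1 and 0.97 in Y79.

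Values that changed sign in WERI-Rb-1 with mitochondrial scaling were those of EEF1A1 (-0.34), EEF1A2 (-0.89), EEF1B2 (-0.67), EEF1D (-1.47), EEF1G (-0.31), EEF2 (-0.78), EIF1 (-1.72), EIF1AX (-1.35), EIF2S3 (-1.42), EIF3C (-0.43), EIF3CL (-0.51), EIF3E (-1.70), EIF3F (-1.10), EIF4A2 (-0.97), EIF4E3 (-1.83), EIF4EBP1 (-1.77), EIF4EBP2 (-1.84), EIF4G2 (-0.47) and EIF5A (-0.73). With library size alone they were EEF1D (-0.020), EIF1 (-0.27), EIF3E (-0.25), EIF4EBP1 (-0.31) and EIF4EBP2 (-0.39). Summing a member with its overlapping or near-identical model, an alternative chosen after seeing the data, turned EIF4A1 to 0.26. In Y79, mitochondrial scaling turned EEF1D (-0.37), EEF2 (-0.11), EIF1AX (-1.49), EIF2S3 (-0.65), EIF3CL (-0.10), EIF3E (-0.57), EIF3F (-0.0093), EIF4A1 (-0.88), EIF4A2 (-0.86), EIF4E3 (-1.36), EIF4EBP1 (-1.50), EIF4G2 (-0.35) and EIF5A (-0.60), and library size turned EIF1AX (-0.35) and EIF4EBP1 (-0.37). In DMSO, mitochondrial scaling turned EIF4EBP2 (-0.012), EIF4G1 (-0.017) and EIF4G2 (-0.082).

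Leaving out each library in turn gave 10354 to 10565 called features in WERI-Rb-1, 11142 to 12225 in Y79, 2523 to 5631 for the difference and 10379 to 10579 in DMSO. Members higher and lower were 25 to 26 and 26 to 27 in WERI-Rb-1, 28 to 29 and 26 to 31 in Y79, 8 to 19 and 9 to 23 for the difference (the highest values without Y79 THZ1 replicate 2), and 38 to 41 and 5 to 7 in DMSO. The elongation medians ran from 1.15 to 1.21, 1.55 to 1.87 and 0.39 to 0.69, and the initiation medians from -0.012 to 0.053, -0.25 to -0.01 and -0.027 to 0.14. The ratio differences ran from 0.89 to 0.93 and from 1.08 to 1.17. With the replicate number as a block, 135 of 140 values kept direction and call. The difference between lines was lost for EEF1G (0.56), EEF2 (0.47), EIF1AX (-0.33) and EIF4EBP2 (-0.36) and gained for EIF4A1 (1.06). DESeq2 kept 133 of 140 and gained 7, no filter kept 139, and RLE kept 137. Depth limits EIF4E1B and EIF4EBP3.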
